A study of Homo sapiens with 24 samples.

Results

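The hypoxia pathway was followed through 10 of the 21240 genes measured: HIF1A, EPAS1, VEGFA, ADM, CA9, BNIP3, BNIP3L, EGLN1, EGLN3 and ANKRD37. They were found as the 13 array probes whose RefSeq accession belongs to one of them, and all 10 passed the filter on dim spots. RNA came from aggregates of LUHMES, a human mesencephalic cell line with conditional immortalization that differentiates into dopaminergic neurons, grown in 3D on a shaker in medium with cAMP, GDNF and tetracycline. Rotenone, an inhibitor of complex I of the mitochondrial respiratory chain, was given from day 7 of differentiation. The 8 groups of 3 wells combined 2 days of collection with 4 exposures. The exposures were DMSO as vehicle, 50 nM rotenone during 12 h or during 24 h, and 100 nM rotenone during 24 h. Cultures were collected on day 8, when the 24 h exposures ended, or on day 15, when the compound had been washed out and 7 days of recovery had passed. The 12 h exposure also began on day 7, and the time from its end to collection was not known. DMSO was matched to the amount in the 100 nM cultures, and the labels give no exposure time for it. All groups therefore share 1 cell line, and because the labels describe the 3 replicates as wells, p values measure the spread between these wells, which may be technical.

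Hypoxia-inducible factor (HIF) is a dimer of an oxygen-regulated alpha subunit and a stable beta subunit. With oxygen present, prolyl hydroxylases of the EGLN family mark the alpha subunit for destruction by the VHL complex, and with oxygen scarce the dimer builds up and switches on genes of glycolysis, blood vessel growth and mitophagy. Mitochondria with blocked electron transport use less oxygen, and inhibitors of complex I are known to lower HIF alpha protein in hypoxic cells. The arrays measured mRNA and not HIF protein, whose amount is set largely after translation.

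The dimer binds DNA at a core of 5 bases, ACGTG or GCGTG. Promoter windows of GRCh38.p14 from RefSeq, 250 bases before to 50 after a start of transcription, were matched to 8 members by symbol and gave 9 windows, 2 of them for HIF1A. The windows of VEGFA and BNIP3L were not used here. The core was found on either strand in 7 of the 9 windows, and in 48.4% of the 35116 windows of all genes (ACGTG in 21.4%, GCGTG in 36.5%). A core read on both strands of the palindrome CACGTG, which is also the E-box read by other factors, counted as 2 matches. ANKRD37, the member that rose with rotenone, had 3 matches, and 10.1% of all windows had at least 3. BNIP3 had the most, 6, and was not called with any exposure, and 0.923% of all windows had at least 6. EPAS1, called lower with 100 nM rotenone at the edge of the threshold, had 1. ADM, CA9 and EGLN1 also had 1 each and were not called with any exposure. A match is a description of the letters and not a binding site. The windows of ANKRD37, BNIP3 and EPAS1 are shown as examples, with the core in capitals. They are chr4:185396591-185396890 on the plus strand, chr10:131981874-131982173 on the minus strand and chr2:46297157-46297456 on the plus strand.
ANKRD37: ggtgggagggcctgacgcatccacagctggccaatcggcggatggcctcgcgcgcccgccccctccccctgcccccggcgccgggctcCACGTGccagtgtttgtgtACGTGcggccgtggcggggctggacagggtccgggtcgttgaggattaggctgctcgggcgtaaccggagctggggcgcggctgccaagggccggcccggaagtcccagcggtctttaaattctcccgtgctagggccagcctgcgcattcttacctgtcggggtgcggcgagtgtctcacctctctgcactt
BNIP3: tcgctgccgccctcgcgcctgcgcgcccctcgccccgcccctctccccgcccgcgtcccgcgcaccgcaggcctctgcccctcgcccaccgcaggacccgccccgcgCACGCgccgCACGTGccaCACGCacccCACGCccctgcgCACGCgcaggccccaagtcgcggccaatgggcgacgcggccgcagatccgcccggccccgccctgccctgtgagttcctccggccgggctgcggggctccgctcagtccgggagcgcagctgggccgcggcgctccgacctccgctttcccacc
EPAS1: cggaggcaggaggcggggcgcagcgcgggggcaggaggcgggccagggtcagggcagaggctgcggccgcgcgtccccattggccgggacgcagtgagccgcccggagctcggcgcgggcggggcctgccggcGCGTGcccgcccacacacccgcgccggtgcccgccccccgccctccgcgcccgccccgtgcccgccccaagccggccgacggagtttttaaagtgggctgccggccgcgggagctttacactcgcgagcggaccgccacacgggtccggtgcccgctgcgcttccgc

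**Figure D1:**
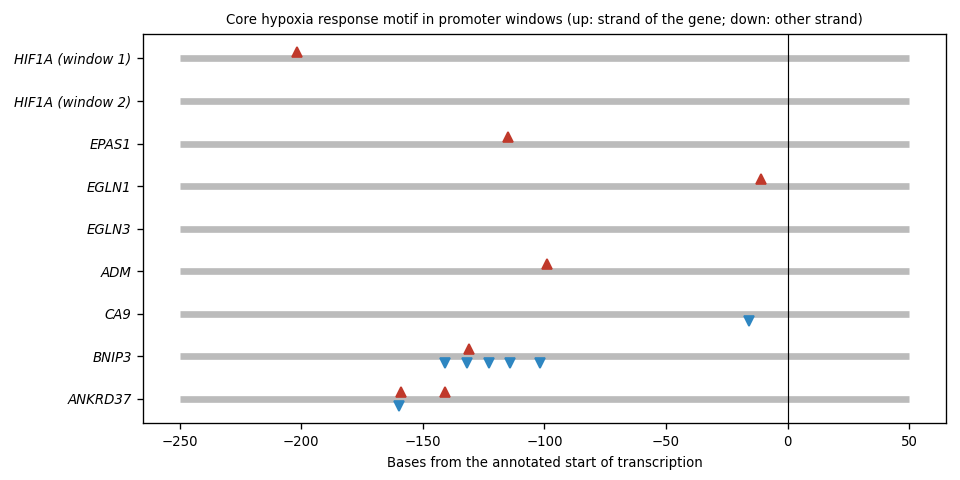
Matches of the HIF core motif in the promoter windows of 8 members, against the distance in bases from the annotated start of transcription. Upward triangles are matches on the strand of the gene and downward triangles on the other strand. The 3 matches of ANKRD37 lie 143 to 162 bases before the start and the 6 of BNIP3 lie 104 to 143 bases before it, while the second HIF1A window and EGLN3 have none.

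Each sample was hybridized to its own single-color Agilent array, and 50.9% to 82.4% of the spots of an array were well above background. Slide 1 held replicate 1 of every group and had 67.3% to 82.4%, against 50.9% to 62.4% on slides 2 and 3, and was corrected as a batch. Values are normalized log2 signals, which are compared between groups for the same gene and never between genes. The number of arrays limits how precise these values are. A gene was called when limma's Benjamini-Hochberg adjusted p over all genes was under 0.05, with any fold change, and calls with a fold change over 1.5 were also counted. Errors of changes are standard errors (SE). HIF1A, EGLN1, BNIP3, BNIP3L and ANKRD37 were well above background on all 24 arrays. VEGFA was so on 23 arrays, ADM on 15, EPAS1 on 14, EGLN3 on 9 and CA9 on 2. All 10 neuronal markers, among them TUBB3 and MAP2, were well above background on every array, as was TH, the rate-limiting enzyme of dopamine synthesis. The dopamine transporter gene SLC6A3 was too, while SLC18A2, which loads dopamine into vesicles, reached that level on 3 arrays. Of the astrocyte markers at most 1 of 6 was well above background on all arrays of any group, and of the microglial markers at most 1 of 5, where TMEM119 was so on 23 of the 24 arrays, ITGAM on 8 and the other 3 on 1 to 4. Of the 6 endothelial and vascular markers it was 3 to 4 in the groups of day 8 and 1 to 3 in those of day 15. PDGFRB was so on 24 arrays, VWF on 23, CDH5 on 20, ACTA2 on 16, KDR on 2 and PECAM1 on 1. Of the 5 oligodendrocyte markers tested it was 3 on day 8 and 3 to 4 on day 15.

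**Figure D2:**
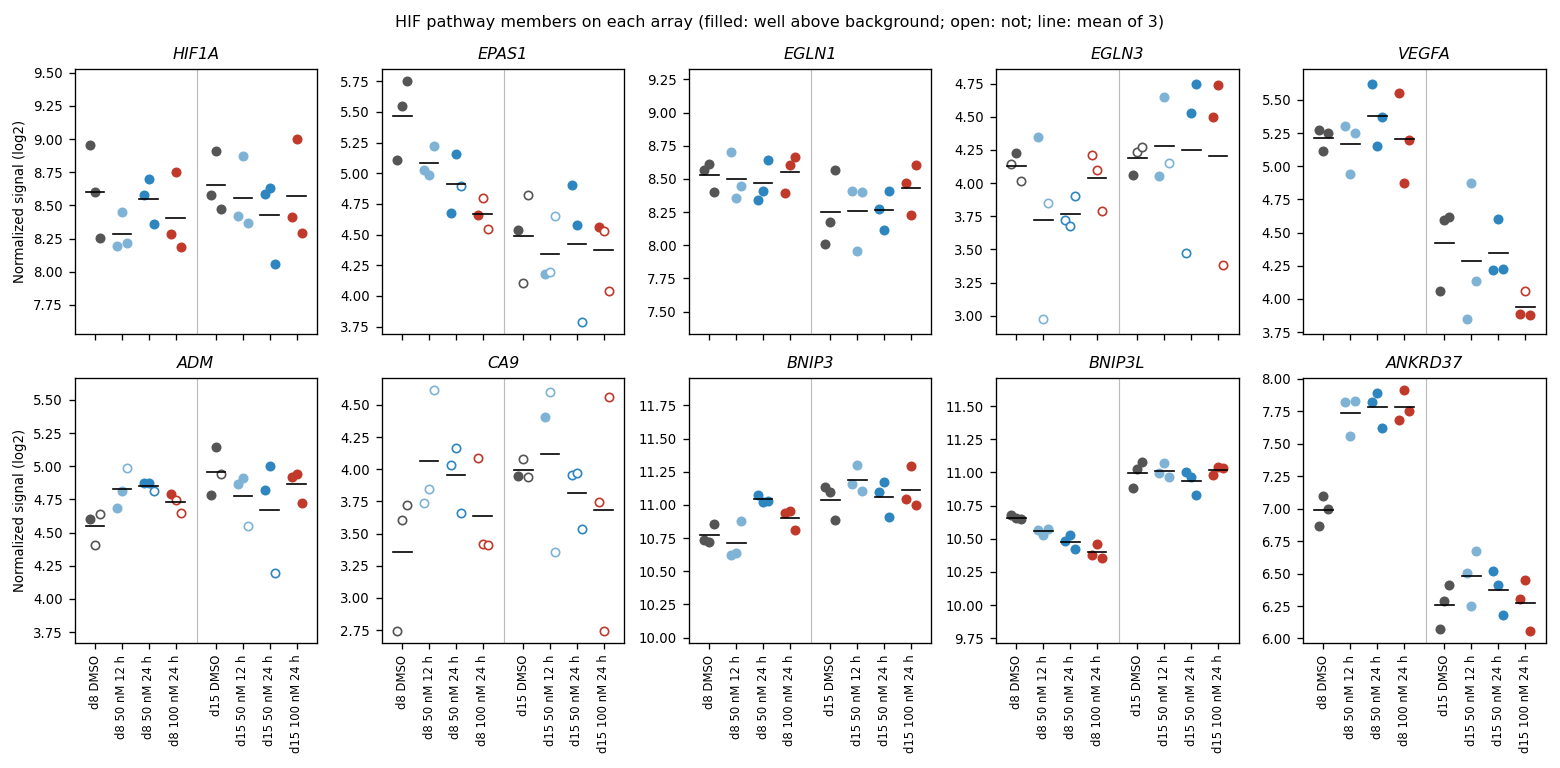
Normalized log2 signal of the 10 members on each of the 24 arrays, by group, with days 8 and 15 separated by a grey line and a panel for each gene with its own axis of signal. Filled points were well above background, open points were not, and the short line is the mean of 3 arrays. The day 8 rotenone arrays of ANKRD37 sit between 7.56 and 7.92 and its day 8 DMSO arrays between 6.87 and 7.10.

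The first question was whether rotenone changed these genes by day 8. Directly after 24 h of 100 nM rotenone, 1 of the 10 members was called higher and 2 lower, where 9.48% of all genes were called, 4.07% higher and 5.41% lower. ANKRD37 was called higher, EPAS1 and BNIP3L were called lower, and the other 7 members did not pass the test. In 17 alternatives of processing or of arrays left out, the call held in 16 for ANKRD37, 6 for EPAS1 and 5 for BNIP3L. EPAS1 was not called when the slide entered the fit as a block. The rotenone arrays lay wholly above the DMSO arrays for 2 members and wholly below for 2, while 12.6% and 15.8% of all genes did so. The median log2 change of the 10 members, with the dim CA9 and EGLN3 included, was 0.01, beside -0.02 for all genes tested. With a fold change over 1.5 as well, 1 member was higher and 1 lower, where 3.45% of all genes passed (1.43% higher and 2.02% lower), and 3 members had an unadjusted p under 0.05, as did 20.6% of all genes. After 24 h of 50 nM, 1 member was called higher and 0 lower, where 8.02% of all genes were called, 3.66% higher and 4.36% lower. The fold change over 1.5 left that member, with 2.8% of all genes (1.38% higher and 1.42% lower), and an unadjusted p under 0.05 held for 4 members and 19.6% of all genes. Arrays did not overlap for 3 members on the higher side and 2 on the lower, and for 12.5% and 15.6% of all genes. The 12 h exposure again gave 1 member higher and 0 lower, where 5.52% of all genes were called, 2.66% higher and 2.85% lower. That member also passed the fold change, as 1.75% of all genes did (0.829% higher and 0.923% lower), and it was the 1 member with an unadjusted p under 0.05, against 16.8% of all genes. Arrays did not overlap for 3 members on the higher side and 1 on the lower, and for 10.5% and 13.1% of all genes. The member called in all 3 exposures was ANKRD37. These 3 comparisons share the same DMSO arrays and are not independent.

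ANKRD37 encodes a small ankyrin repeat protein and is known as a direct target of HIF-1. On day 8 its log2 signal was 6.87, 7.10 and 7.00 in DMSO and 7.68, 7.92 and 7.75 after 100 nM rotenone. After 50 nM for 24 h it was 7.82, 7.89 and 7.62, and after 50 nM for 12 h it was 7.82, 7.56 and 7.83. All 9 rotenone arrays lay above all 3 DMSO arrays. The log2 change was 0.79 with 100 nM (SE 0.14, adjusted p = 0.00082), a 1.73-fold rise that was larger than that of 99.1% of all genes. The 24 h exposure to 50 nM gave 0.79 (SE 0.14, adjusted p = 0.0010), and the 12 h exposure gave 0.75 (SE 0.14, adjusted p = 0.0024).

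No difference in the rise of ANKRD37 was detected between doses or times. Between 100 nM and 50 nM for 24 h the log2 difference was 0.00, with a 95% interval of -0.28 to 0.29. Between 24 h and 12 h of 50 nM it was 0.04 (95% interval -0.24 to 0.33). Under 11 other ways of processing, the change with 100 nM was 0.61 to 0.89, and adjusted p ranged from 9.6e-05 to 0.10. The highest of these came from the use of slides 2 and 3 only, which leaves 2 arrays per group and ended the call for all 3 exposures. For the 12 h exposure the call was also lost without batch correction (adjusted p = 0.061) and with only the compared groups in the fit (adjusted p = 0.070).

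The alpha subunits are the oxygen-regulated partners of the dimer, and neither was called higher. HIF1A, which encodes HIF-1 alpha, was at 8.96, 8.60 and 8.25 in DMSO on day 8 and at 8.29, 8.76 and 8.19 with 100 nM. The arrays overlapped, and the log2 change was -0.20 with a 95% interval of -0.66 to 0.27. With 50 nM it was -0.06 after 24 h and -0.32 after 12 h, both with intervals that span 0. HIF1A has a probe printed in 10 spots, with a change of -0.07 with 100 nM, and a probe printed once, with -0.32.

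EPAS1 encodes HIF-2 alpha, the alpha subunit best known in vessels and glia. Its log2 signal was 5.11, 5.55 and 5.75 in DMSO and 4.66, 4.80 and 4.54 with 100 nM, so that the groups did not overlap. Only 1 of the 3 rotenone arrays had it well above background, against 3 of 3 in DMSO. The log2 change was -0.80 (SE 0.25, adjusted p = 0.0496), at the edge of the threshold. The call held in 6 of 17 alternatives, with an adjusted p from limma of 0.0069 to 0.20. It was lost when the slide entered the fit as a block instead of the batch correction (adjusted p = 0.069). It was also lost with percentile scaling, without batch correction, with only the compared groups and with slides 2 and 3 only. Leaving out any array other than replicate 1 of DMSO ended it too, which gave 0.076 to 0.19. The change ran from -1.66 with the processed signal to -0.33 with a normexp offset of 50. For 50 nM it was -0.56 at 24 h (adjusted p = 0.21), while 12 h gave -0.39 (adjusted p = 0.50), and the arrays overlapped with DMSO in both.

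The prolyl hydroxylases close a feedback loop, since they inactivate HIF and are themselves known HIF targets. EGLN1, the main oxygen sensor of the family, was at 8.57, 8.61 and 8.40 in DMSO and at 8.40, 8.61 and 8.66 with 100 nM on day 8. Its log2 change was 0.03 (95% interval -0.30 to 0.35), and with 50 nM it was -0.06 after 24 h and -0.03 after 12 h. EGLN3, whose mRNA is strongly induced in hypoxic cells, was well above background on 1 of 3 DMSO arrays and on 0 of 3 with 100 nM or with 50 nM for 24 h. Its log2 signal stayed between 2.98 and 4.34 on all day 8 arrays, and no fold change is given for it in the text.

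The secreted products gave no call on day 8. VEGFA, the main angiogenic growth factor, was at 5.27, 5.12 and 5.25 in DMSO and at 5.55, 4.87 and 5.19 with 100 nM, a log2 change of -0.01 (95% interval -0.48 to 0.46). Of its 2 probes, the second was not well above background on any of the 24 arrays, and the gene's value is the mean of both. The probe that was measured changed by 0.55 with 50 nM for 24 h (unadjusted p = 0.015 in the fit of probes), 0.16 with 100 nM and 0.15 with 50 nM for 12 h. A normexp offset of 50 gave the gene an adjusted p of 0.024 with 50 nM for 24 h, where the change was 0.34, against 0.17 (adjusted p = 0.80) without it.

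ADM encodes adrenomedullin, a vasodilator peptide whose mRNA is induced by hypoxia in many cells. It was at 4.60, 4.41 and 4.64 in DMSO and at 4.87, 4.87 and 4.82 with 50 nM for 24 h. All rotenone arrays of the 3 exposures lay above all DMSO arrays. Its changes were 0.18 with 100 nM (adjusted p = 0.63), 0.30 with 50 nM for 24 h (adjusted p = 0.31) and 0.28 with 50 nM for 12 h (adjusted p = 0.42). At most 2 of 3 arrays of any day 8 group had ADM well above background. CA9, a carbonic anhydrase of the cell surface and a classic marker of hypoxic tissue, was not well above background on any of the 12 arrays of day 8. No change is given for it in the text, although its 12 h arrays of 50 nM lay above those of DMSO.

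BNIP3 and BNIP3L encode related receptors of the outer mitochondrial membrane that recruit mitochondria for mitophagy, and both are known HIF targets. BNIP3L was at 10.68, 10.66 and 10.65 in DMSO and at 10.38, 10.46 and 10.35 with 100 nM. These groups did not overlap, and the log2 change was -0.26 (SE 0.07, adjusted p = 0.022), a fall of 1.20-fold. Both of its probes were lower, by -0.30 and -0.23. For 50 nM it was -0.18 at 24 h (adjusted p = 0.14), while 12 h gave -0.10 (adjusted p = 0.53), in each case with all arrays below DMSO. The call with 100 nM was kept with the slide as a block (adjusted p = 0.024), but it held in 4 of 11 other ways of processing, and only leaving out replicate 2 of 100 nM kept it (0.029), while each of the other single arrays ended it (0.057 to 0.090). With the authors' deposited normalized values the change was -0.12 (adjusted p = 0.55).

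BNIP3 was at 10.74, 10.72 and 10.85 in DMSO, at 11.07, 11.02 and 11.03 with 50 nM for 24 h and at 10.94, 10.96 and 10.81 with 100 nM. The 24 h arrays of 50 nM lay above DMSO, with a log2 change of 0.27 that did not pass (SE 0.10, adjusted p = 0.12). With 100 nM it was 0.13 (adjusted p = 0.55) and with 50 nM for 12 h -0.06 (adjusted p = 0.88). Between 24 h and 12 h of 50 nM BNIP3 differed by 0.33 (SE 0.10, unadjusted p = 0.0045, adjusted p = 0.19), and its arrays did not overlap. In that comparison 0 members were called, 1 had an unadjusted p under 0.05, and 0.537% of all genes were called, with an unadjusted p under 0.05 for 10.9%. Between 100 nM and 50 nM for 24 h limma called 0 members and 0% of all genes, and 0 members had an unadjusted p under 0.05, where 4.17% of all genes did. Arrays of BNIP3 and ADM at 100 nM lay below those at 50 nM for 24 h, as for 5.67% of all genes.

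**Figure D3:**
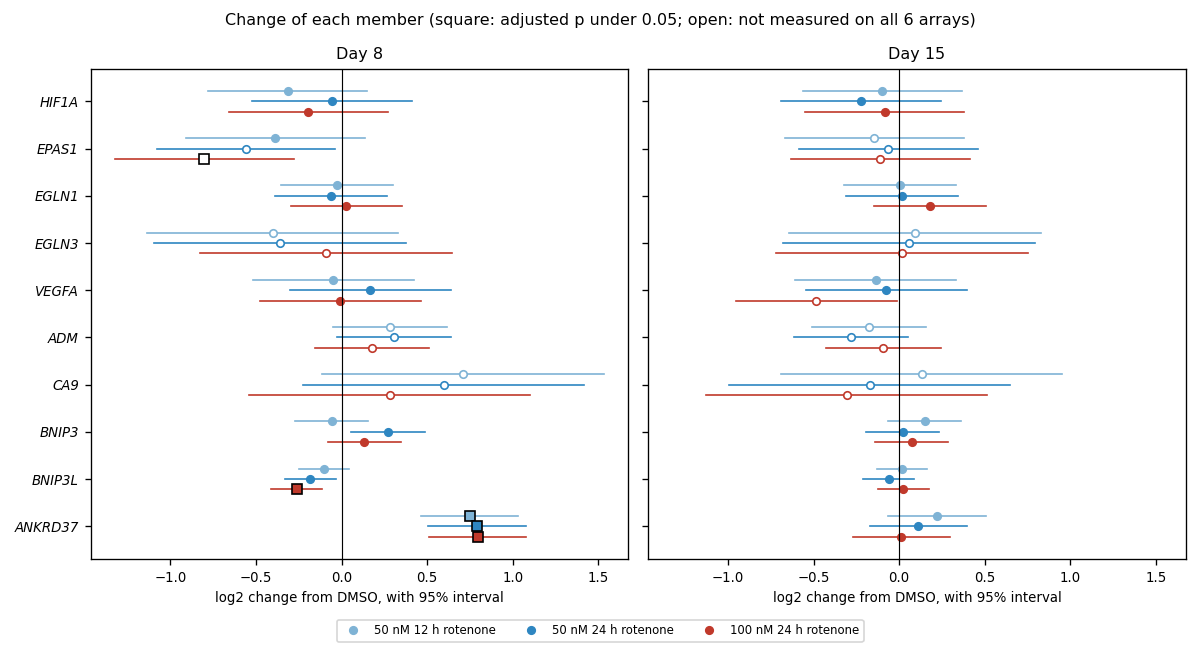
log2 change of each member from the DMSO arrays of the same day, with its 95% interval from limma, for the 3 exposures on day 8 (left) and day 15 (right). Squares passed an adjusted p of 0.05, and open symbols mark genes that were not well above background on all 6 arrays compared. CA9 and EGLN3 are drawn too, but their changes lie near background and are not read. ANKRD37 stands at 0.75 to 0.79 on day 8 and at 0.01 to 0.22 on day 15.

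The second question was what could be measured 7 days after the compound was removed. On day 15, limma called 0 of the 10 members with each of the 3 exposures, and 0% of all genes. The DMSO group of day 15 holds replicate 1, whose scan name does not name DMSO. At an unadjusted p under 0.05 the counts were 1, 0 and 0 members with 100 nM, 50 nM for 24 h and 50 nM for 12 h, where 7.21%, 3.28% and 3.47% of all genes passed. The 1 member was VEGFA, at 4.06, 4.60 and 4.62 in DMSO and at 3.89, 4.06 and 3.87 with 100 nM. Its log2 change was -0.48 (95% interval -0.95 to -0.01, unadjusted p = 0.045, adjusted p = 0.69), and 2 of the 3 rotenone arrays had it well above background. The probe of VEGFA that was measured changed by -0.23. VEGFA arrays did not overlap, as for 4.84% of all genes on the lower side, but they almost touched. The highest 100 nM array, which was not well above background, was at 4.0589. The lowest DMSO array was replicate 1, at 4.0590. All other members overlapped between rotenone and DMSO in all 3 comparisons of day 15.

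ANKRD37 was back among its controls on day 15. Its log2 signal was 6.07, 6.29 and 6.41 in DMSO, 6.30, 6.45 and 6.06 after 100 nM, 6.52, 6.41 and 6.18 after 50 nM for 24 h and 6.50, 6.25 and 6.68 after 50 nM for 12 h. The groups overlapped, and the changes were 0.01 with 100 nM (95% interval -0.27 to 0.30), 0.11 and 0.22. The change with 100 nM was smaller on day 15 than on day 8 by 0.78 on the log2 scale, and the test of that difference gave a value of -0.78 (SE 0.19, adjusted p = 0.035), with 2.44% of all genes called. The difference was negative on all 3 slides. With the slide as a block the adjusted p was 0.051, the call held in 6 of 11 other ways of processing and in 3 of 12 cases with a single array left out. For the 50 nM exposures the adjusted p of the difference was 0.074 (24 h) and 0.25 (12 h). The other 9 members did not pass this test with 100 nM, and the nearest was BNIP3L with a difference of 0.29 (SE 0.10, adjusted p = 0.16).

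BNIP3L, lower on day 8, was at 10.88, 11.03 and 11.08 in DMSO on day 15 and at 10.98, 11.04 and 11.03 after 100 nM, a change of 0.02 (95% interval -0.12 to 0.17). EPAS1 changed by -0.11 (95% interval -0.63 to 0.41) and was well above background on 1 of 3 arrays of either group. EGLN1 changed by 0.18, BNIP3 by 0.07 and HIF1A by -0.08 after 100 nM, with intervals that span 0.

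The vehicle cultures of day 15 and day 8 were compared to see how the members moved with time in culture. ANKRD37, EPAS1 and VEGFA fell and BNIP3L rose. Of the 10 members 1 was called higher and 3 lower, and 23.2% of all genes were called, 10.1% higher and 13.2% lower. With a fold change over 1.5 it was 0 higher and 3 lower, and 12.2% of all genes, 5.79% higher and 6.38% lower. An unadjusted p under 0.05 held for 6 members and 33.7% of all genes. Arrays of the 2 days did not overlap for 7 members, 4 higher and 3 lower, against 17.4% and 22.6% of all genes. BNIP3L was at 10.68, 10.66 and 10.65 on day 8 and at 10.88, 11.03 and 11.08 on day 15, a log2 change of 0.34 (SE 0.07, adjusted p = 0.0016). ANKRD37 fell from 6.99 ± 0.12 (SD, n = 3) to 6.26 ± 0.17 (SD, n = 3), by -0.73 (SE 0.14, adjusted p = 0.00057). The days did not overlap for either gene. The call of BNIP3L was lost without batch correction (adjusted p = 0.15) and with only the compared groups (0.061), and that of ANKRD37 with slides 2 and 3 only (0.058).

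VEGFA fell from 5.21 ± 0.08 (SD, n = 3) to 4.42 ± 0.32 (SD, n = 3), by -0.79 (SE 0.22, adjusted p = 0.015), and its measured probe by -0.84. Without replicate 1 of day 15 DMSO, whose scan name does not name DMSO, the change was -0.61 (adjusted p = 0.090). The call of VEGFA held in 12 of 17 alternatives, with an adjusted p from limma of up to 0.22. EPAS1 was at 5.11, 5.55 and 5.75 on day 8 and at 4.54, 4.10 and 4.82 on day 15, where 1 of 3 arrays had it well above background. Its log2 change was -0.98 (SE 0.25, adjusted p = 0.0071), and -0.39 (adjusted p = 0.0021) with a normexp offset of 50. CA9 was well above background on 1 of 3 arrays of day 15 and 0 of 3 of day 8, did not pass (adjusted p = 0.28) and is given no fold change in the text. ADM at 0.41 (adjusted p = 0.074) and BNIP3 at 0.27 (adjusted p = 0.065) did not pass, although their arrays did not overlap, and HIF1A changed by 0.05 and EGLN1 by -0.28, both with overlapping arrays.

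Other markers also moved with the day. The summed linear signal of the 11 dopaminergic markers was 1938 to 2766 on the arrays of day 8 and 1236 to 1461 on those of day 15. For the 8 markers of proliferating cells it was 1471 to 2244 and 1130 to 1384, with 4 to 8 markers well above background on all arrays of a day 8 group and 3 on day 15. The oligodendrocyte list, in which OLIG1 is the brightest, had sums of 4824 to 6720 and 251 to 501. Linear sums weigh the brightest genes most and need not reflect all genes of a list. In the dopaminergic list the highest log2 signals were 10.34 for TH, 9.42 for EN1 and 9.41 for SLC6A3, and 5.15 for DDC. In the proliferating list they were 10.15 for PCNA and 9.11 for MCM2. The part of these lists in the changes between the days was not tested, and in bulk RNA fewer cells of a type and less RNA per cell cannot be told apart. For 100 nM on day 8 the proliferating list stood at 1524 to 1665 against 1635 to 2244 in DMSO, with 0 of its 8 genes called by limma. All 8 had a negative log2 change, from -0.88 for AURKB (adjusted p = 0.20) to -0.04 for BUB1 (adjusted p = 0.97). In day 8 DMSO 8 of them were well above background on all arrays, against 7 with each 50 nM exposure and 4 with 100 nM. Of the 10 neuronal markers 3 were called lower, MAP2 by -0.57 (adjusted p = 0.0028), ELAVL4 by -0.51 (adjusted p = 0.0072) and SNAP25 by -0.30 (adjusted p = 0.041). The part of either list in the changes with rotenone was not tested.

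**Figure D4:**
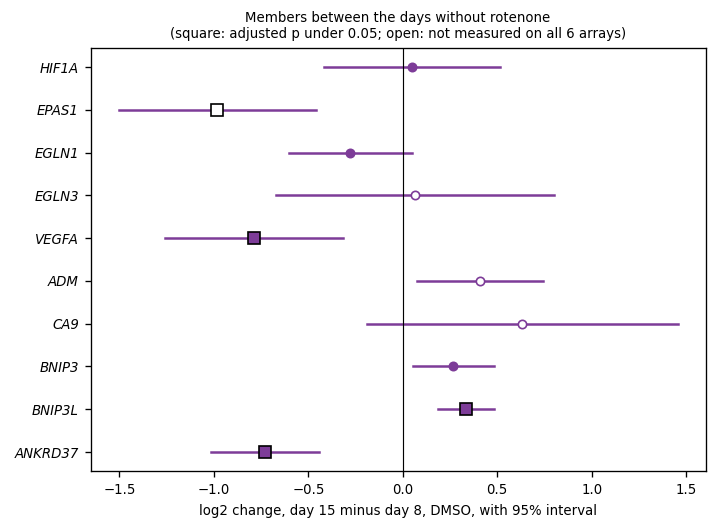
log2 change of each member between DMSO cultures of day 15 and day 8, with its 95% interval from limma and n = 3 arrays per day. Squares passed an adjusted p of 0.05, and open symbols were not well above background on all 6 arrays. The changes of CA9 and EGLN3 are drawn too, but lie near background and are not read. EPAS1, VEGFA and ANKRD37 lie below 0 at -0.98 to -0.73, and BNIP3L lies above at 0.34.

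Over all 8 groups, ANKRD37 thus had its highest means with rotenone on day 8, at 7.78, 7.78 and 7.74, followed by DMSO of day 8 at 6.99 and the groups of day 15 at 6.26 to 6.48. Within the first 3 and within the last 4 the arrays overlapped. BNIP3L was at 10.93 to 11.02 in the groups of day 15 and at 10.40 to 10.66 on day 8, with DMSO the highest of day 8 and 100 nM the lowest. BNIP3 means ran from 10.71 to 11.19, EGLN1 means from 8.25 to 8.56 and HIF1A means from 8.29 to 8.65. Among 12908 genes well above background on all arrays, those whose 8 group means ran most like those of ANKRD37 were SPRY1 (Pearson r = 0.998) and ZHX1-C8orf76 (r = 0.997). For BNIP3L they were GNG2 (r = 0.998) and RDX (r = 0.997). These are descriptions over 8 means that share slides and controls.

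The rest of the pathway was read from 3 lists, of which 80 genes were tested. The lists were chosen with earlier results of these data known, so their counts beside the shares of all genes are descriptions only. No value with the slide as a block was kept for single genes of the lists. With 100 nM on day 8, 4 of 25 genes of glucose and energy metabolism were called, all higher, where 4.07% of all genes were called higher. ALDOC, PGM1 and PFKP, enzymes of glycolysis and glycogen use, each rose by 0.64 (adjusted p = 0.0014, 0.00039 and 0.0014). The adenylate kinase AK4 rose by 0.42 (adjusted p = 0.012). The median change of the list was 0.10, against -0.02 for all genes. With 50 nM 5 genes were called higher after 24 h, led by PFKP at 0.72 and PGM1 at 0.68, and 3 after 12 h, led by PGM1 and PFKP at 0.57 each, with 0 lower in both, where 3.66% and 2.66% of all genes were called higher.

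Of the 40 other targets tested, 5 were called higher and 1 lower with 100 nM on day 8, with a median change of 0.05, where 4.07% of all genes were called higher and 5.41% lower. HMOX1, heme oxygenase 1, rose by 0.82 (SE 0.24, adjusted p = 0.039), and it is also a target of the oxidative stress factor NRF2. P4HA2, a collagen prolyl hydroxylase, rose by 0.59 (adjusted p = 0.014). PLOD2, a collagen lysyl hydroxylase, fell by 0.42 (adjusted p = 0.030). With 50 nM for 24 h the count was 5 higher and 1 lower (all genes 3.66% and 4.36%), and HMOX1 rose by 1.09 (adjusted p = 0.0078), FAM162A by 0.65 (adjusted p = 0.00041) and EFNA1 fell by 0.49 (adjusted p = 0.033). After 12 h it was 4 higher and 1 lower (all genes 2.66% and 2.85%), with CXCR4 at 0.56 (adjusted p = 0.011), FAM162A at 0.49 (adjusted p = 0.0060) and DDIT4, an inhibitor of mTORC1 signaling, at -0.52 (adjusted p = 0.00085).

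Among 15 genes for HIF subunits, cofactors and oxygen sensing, 1 was called higher and 2 lower with 100 nM on day 8, with a median of -0.14, beside the same 4.07% and 5.41% of all genes. SIAH2, a ubiquitin ligase for the hydroxylases, rose by 0.33 (adjusted p = 0.032). ELOB, the elongin B subunit of the VHL ligase complex, fell by 0.86 (SE 0.09, adjusted p = 5.6e-06), and CREBBP, a coactivator, fell by 0.37 (adjusted p = 0.026). With 50 nM the calls were 0 higher and 2 lower after 24 h, ELOB by -0.77 and EGLN2 by -0.46 (adjusted p = 2.9e-05 and 0.041), where 4.36% of all genes were called lower. After 12 h 1 of 15 was called, ELOB at -0.65 (adjusted p = 0.00026), where 2.85% of all genes were called lower.

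On day 15, limma called 0 genes of the 3 lists with each of the 3 exposures. The smallest p after 100 nM was that of ARNT, the HIF beta subunit, in the first list (-0.42, unadjusted p = 0.0057, adjusted p = 0.56), of the glucose transporter SLC2A1 in the metabolic list (-0.27, unadjusted p = 0.012, adjusted p = 0.63) and of P4HA2 in the third (-0.38, unadjusted p = 0.018, adjusted p = 0.64). SLC2A1 also had the smallest p of its list after 50 nM, with changes of -0.27 (24 h, unadjusted p = 0.010) and -0.21 (12 h, unadjusted p = 0.040). In the other lists these were EP300 (-0.17) and FLT1 (0.46) for 24 h, and HIF1AN (-0.23) and CXCR4 (0.40) for 12 h. The change with 100 nM differed between the days for ELOB by 0.83 (adjusted p = 0.0013), AK4 by -0.65 (adjusted p = 0.019), PGM1 by -0.57 (adjusted p = 0.039) and P4HA2 by -0.98 (adjusted p = 0.015), where 2.44% of all genes were called. Of 23 alternatives, 15 moved the count of the metabolic list (2 reported, 0 to 4) by over 1.5 times, 9 that of the other targets (1 reported, 0 to 3) and 1 that of the first list (1 reported, 0 to 1). For the 24 h exposure to 50 nM 2.16% of all genes were called. The test called ELOB (0.80, adjusted p = 0.0026), PGM1 (-0.58, adjusted p = 0.038), AK4 (-0.56, adjusted p = 0.049) and FAM162A (-0.85, adjusted p = 0.0034). For the 12 h exposure, where 1.08% were, it called ELOB (0.62, adjusted p = 0.026), AK4 (-0.63, adjusted p = 0.044) and DDIT4 (0.49, adjusted p = 0.049). For the 50 nM exposures no alternatives of this test were run. Of 25 metabolic genes 1 was called between 24 h and 12 h of 50 nM, ALDOC, which was higher by 0.56 after 24 h (adjusted p = 0.034), where 0.537% of all genes were called, and in 7 of 17 alternatives 0 of the 25 were called. In the other lists the smallest p was that of NDRG1 (-0.39, adjusted p = 0.15) and ARNT2 (-0.29, adjusted p = 0.54). Between 100 nM and 50 nM for 24 h it was that of SLC2A1 (-0.26), PLOD2 (-0.30) and EGLN2 (0.22), and 0 genes were called.

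**Figure D5:**
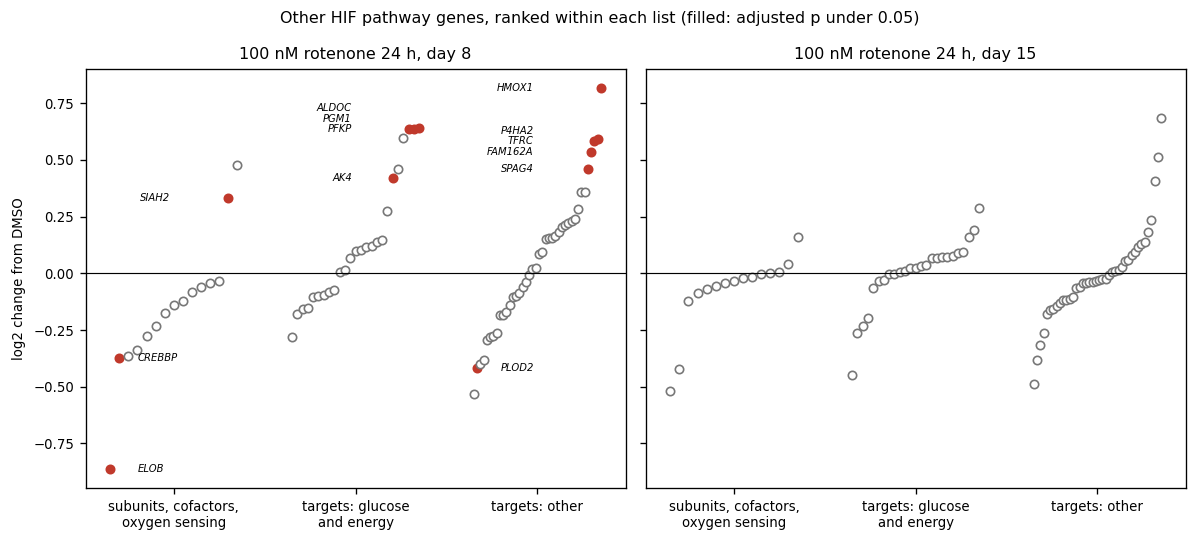
log2 change from DMSO with 100 nM rotenone for 24 h, for the 80 other pathway genes ranked within each of 3 lists, on day 8 (left) and day 15 (right). Filled points passed an adjusted p of 0.05. On day 8, 10 are filled above 0 and 3 below, and on day 15 the number is 0.

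Between the DMSO cultures of the 2 days, 5 metabolic genes were called higher and 2 lower, 5 and 9 of the other targets, and 2 and 1 of the first list, beside the 23.2% of all genes (10.1% higher and 13.2% lower). Over the alternatives the counts called in the 3 lists were 3 to 11 (7 reported), 4 to 17 (14 reported) and 1 to 4 (3 reported). PFKP rose by 1.67 (adjusted p = 3.8e-09) and AK4 by 1.25 (adjusted p = 3.6e-08), while SLC2A1 fell by 0.59 (adjusted p = 0.00014) and TPI1 by 0.27 (adjusted p = 0.038). Among the other targets BHLHE41, a circadian repressor, rose by 1.81 (adjusted p = 3.4e-09) and STC1 by 1.16 (adjusted p = 0.032). The chemokine receptor CXCR4 fell by 1.53 (adjusted p = 4.1e-08) and the carbonic anhydrase CA12 by 0.89 (adjusted p = 0.0088), and STC1 was well above background on 13 of 24 arrays and CA12 on 20. In the first list SIAH2 rose by 0.59 (adjusted p = 0.00013) and HIF3A by 0.54 (adjusted p = 0.015), and CREBBP fell by 0.36 (adjusted p = 0.016).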

How the data were processed

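RNA of 24 samples was labeled with 1 dye and hybridized to Agilent arrays, and groups and replicates were taken from the labels. The scan name of replicate 1 of day 15 DMSO does not name DMSO, which bears on every comparison with that group. The authors deposited the spot intensity of each array as the scanner software wrote it, and log2 values that they had normalized, for 21733 probes of which 19615 could be given a symbol. Per the labels, the submitters' notes name Agilent Feature Extraction 11.5.1.1 and R 3.5, and the files give version 12.0.0.7 for slide 2. The median intensity was corrected with normexp (offset 0), quantile normalized over 24 arrays, and slide 1 was corrected with parametric ComBat (own code, groups as covariates), following the methods. A spot had to exceed, on 3 or more arrays, the 95th percentile of 308 negative controls multiplied by 1.1. Controls were removed, values with outlier flags were set to missing, and spots, then probes, were averaged. Accessions were matched to RefSeq (GRCh38.p14), which named 30275 of 50599 probes, and gene symbols can share probes of near-identical copies.

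Groups were compared with limma 3.58.1 (lmFit, eBayes, two-sided) in 1 fit of 24 arrays (residual degrees of freedom 16, prior 2.37). Tools were R 4.3.3, Python 3.11.15 and matplotlib 3.10.9. The code was tested on simulated data, in which the fit after ComBat called more unchanged genes than its threshold allows, while a fit with the slide as a block kept to it. Adjusted p after ComBat are therefore somewhat too small. Replicate numbers match slides, and the labels mark slide 1 as repeated. Before batch correction, the 84 pairs of arrays that share a number had deviations with a lowest correlation of 0.17 and a median of 0.46, and the median of the 168 other pairs was -0.35. After ComBat the lowest was -0.43 and the median 0.02. Because number and slide coincide, these correlations cannot tell paired samples from arrays that share a slide. With groups of 3, the negative median of the other pairs largely follows from that of the pairs that share a number. The slide block is an alternative, and its value is given where it changes the call of a member. For single genes of the lists no blocked value was kept, so their calls rest on the fit after ComBat.

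The members and gene lists were chosen with earlier results of these data known. The text names all members. Of each list and rotenone comparison it names the called genes of largest change, at most 2 in each direction, or else the gene of smallest p. PFKP and AK4 with 100 nM, and all list genes named between the days in DMSO, lie outside this rule and were chosen after their values were seen. ALDOA, ERO1A, NDUFA4L2 and MIR210HG of the lists were not named on the array. Alternatives were the processed signal, 75th percentile scaling, a normexp offset of 50, no batch correction, the slide block, other filters, the brightest probe, only the compared groups, slides 2 and 3, the deposited values and leaving out each array. No coordinates were taken from the arrays.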

Additional observations from a re-analysis of the deposited data

Results flagged for a closer look

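The change of ANKRD37 with 100 nM rotenone differed between day 8 and day 15 by a test of the difference itself, with a log2 value of -0.78 (SE 0.19, limma, adjusted p = 0.035). It was 0.79 on day 8 and 0.01 on day 15, and the difference was negative on all 3 slides, at -0.58, -0.66 and -1.11. The adjusted p was 0.051 with the slide as a block, and the call held in 6 of 11 other ways of processing (0.0085 to 0.37). Leaving out single arrays kept it in 3 of 12 cases and ended it in 9 (0.028 to 0.098). Groups of 3 arrays are too small to test for single arrays that stand apart.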

How the results depend on the processing

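The alternatives gave 1750 further values for single members, of which 151 had another sign than reported, and 0 of these were called. The number of called members with 100 nM on day 8 was 3 and became 1 with scaling to the 75th percentile, 1 without batch correction, 1 with only the compared groups and 0 with slides 2 and 3, and leaving out single arrays gave 1 to 2. With 50 nM for 24 h it was 1, and 2 with a normexp offset of 50 and 0 with slides 2 and 3. With 50 nM for 12 h it was 1, and 0 without batch correction, with only the compared groups and with slides 2 and 3. Between the days in DMSO it was 4, and 2 with scaling to the 75th percentile, without batch correction and with slides 2 and 3, and leaving out single arrays gave 3 to 5. For the difference between the days with 100 nM it was 1, and 0 with scaling to the 75th percentile, without batch correction, with the slide as a replicate block and with only the compared groups or slides 2 and 3, and leaving out single arrays gave 0 to 1. The cause was not tested, except that slides 2 and 3 and the compared groups leave fewer arrays. The replicate block also left 2 of the 3 members called with 100 nM on day 8, without EPAS1, and changed no other count of members. On day 15 and between doses and times, all alternatives gave 0.

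Counts of called genes in the lists on day 8 were 0 to 5 of the metabolic list with 100 nM (4 reported), 2 to 7 with 50 nM for 24 h (5) and 0 to 3 for 12 h (3), 1 to 8 of the other targets with 100 nM (6), 1 to 8 with 50 nM for 24 h (6) and 0 to 8 for 12 h (5), and 1 to 4 of the first list with 100 nM (3), 1 to 3 with 50 nM for 24 h (2) and 0 to 1 for 12 h (1). ADM between the days was 0.41 and rose to 1.13 (adjusted p = 0.0090) with the processed signal, with which the median of all genes moved to 0.10 with 100 nM on day 8 and to 0.15 between the days. The share of higher calls was then 54.6% between the days, against 43.3%, 59.1% against 45.6% with 50 nM for 24 h (56.7% with scaling to the 75th percentile) and 58.1% against 48.3% for 12 h. The intensity as a mean and naming by gene name were not run.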
